A study of Caenorhabditis elegans with 2 samples.

Results

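The genes described here are the cuticle collagen genes of the nematode Caenorhabditis elegans, in a chromatin immunoprecipitation sequencing (ChIP-seq) experiment on the protein C08G9.2. They were chosen by name from the protein-coding genes of Ensembl release 115: 156 genes called col- and a number, and 18 genes named after mutant phenotypes (rol-6, sqt-1 to sqt-3, lon-3, bli-1, bli-2 and 11 dpy genes). This gave 174 of the 19973 protein-coding genes on the 6 nuclear chromosomes. The name rule used no measured value. The gene family and the coding-exon and Gly-X-Y measures below were chosen with earlier results of these data known. The material was whole hermaphrodite late embryos of strain OP513 (unc-119(tm4063) III; wgIs513), taken 5 hours after synchronization by bleaching. These worms carry a transgene with C08G9.2 joined at its C-terminal end to GFP and FLAG, and GFP was the target of the antibody. There was 1 group of 2 biological replicates, with no second condition, stage or genotype, and the promoter that drives the transgene is not given in the labels.

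The cuticle is the outer coat of the worm, made by the epidermis beneath it and replaced at each moult. Its main proteins are small collagens, which hold long runs of the tripeptide Gly-X-Y and wind into triple helices before they are secreted and cross-linked. The first cuticle is laid down in the late embryo. Loss or change of single collagens alters body shape, giving the dumpy, roller, long and blistered mutants after which dpy, rol, sqt, lon and bli genes are named.

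The authors deposited peak lists, each region with a signal value of unstated scale and a summit. The pooled list of both replicates held 30000 regions and the replicate lists 27783 (replicate 1) and 29382 (replicate 2), and these lists hold weak background regions by design, per the deposited records. The thresholded list, made by irreproducible discovery rate (IDR), held 1416 peaks, and each was also in the pooled list. Sequencing depth is unknown since the lists hold no read counts, so signals are compared only within a list, and the replicates are compared by rank, where a low rank is a high signal. No control or untagged library was analysed here.

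The regions at the cuticle collagen genes lay mainly over their coding sequence, while the share with a region near the start was close to that of all genes. A pooled summit lay inside the gene's own coding exons for 145 of 174 collagen genes (83.3%, 95% exact Clopper-Pearson interval 76.9 to 88.5), against 29.8% of all protein-coding genes tested. A thresholded summit lay there for 18 of 174 (10.3%, 6.25 to 15.9), against 0.411% of all protein-coding genes, so that 18 of the 82 genes with such a summit were cuticle collagens. The intervals treat genes as independent, which neighbouring or related genes need not be, and no test of the gene group was run. All 18 of those summits lay within the part of the exon that encodes Gly-X-Y repeats, counted by the rule given below. By that count, 18 of 173 collagen genes with a stretch had a thresholded summit in it (10.4%), against 2 of 470 other genes (0.426%). The share was 3.11% over all 643 genes, which include the collagens. These stretches made up 47.5% of the coding bases in the collagen genes and 5.49% in the 470 others. The shares per gene thus compare unlike stretch lengths. The 2 other genes were rol-1 and ram-2, with 459 bases of stretch each, the same as the collagen median of 459.

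The sequence at these summits shows what was recovered. The windows below hold 101 bases centred on the summit of the region over the coding exon, on the coding strand of ce11, with each in-frame GGN codon (glycine) in capitals. The first 8 are from thresholded peaks, and sqt-3, dpy-7 and rol-6 are from pooled regions below the threshold, shown because these genes are the best known of the family.
col-33, chrIV:4264802-4264902, plus strand: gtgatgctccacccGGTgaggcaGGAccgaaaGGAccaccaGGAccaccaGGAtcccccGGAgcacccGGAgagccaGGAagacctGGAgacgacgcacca
col-9, chrX:13590862-13590962, plus strand: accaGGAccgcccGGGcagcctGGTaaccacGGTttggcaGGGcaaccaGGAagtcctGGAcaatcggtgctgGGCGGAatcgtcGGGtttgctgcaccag
col-175, chrX:9233949-9234049, minus strand: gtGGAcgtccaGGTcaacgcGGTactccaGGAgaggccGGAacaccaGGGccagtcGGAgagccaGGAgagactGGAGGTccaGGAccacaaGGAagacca
col-105, chrIV:1358259-1358359, minus strand: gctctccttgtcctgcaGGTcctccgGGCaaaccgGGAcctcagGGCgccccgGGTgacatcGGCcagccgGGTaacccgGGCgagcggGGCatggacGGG
col-140, chrV:5836151-5836251, minus strand: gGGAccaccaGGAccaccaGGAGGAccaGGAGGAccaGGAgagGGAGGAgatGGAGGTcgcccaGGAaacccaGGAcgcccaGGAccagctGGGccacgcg
col-19, chrX:422293-422393, plus strand: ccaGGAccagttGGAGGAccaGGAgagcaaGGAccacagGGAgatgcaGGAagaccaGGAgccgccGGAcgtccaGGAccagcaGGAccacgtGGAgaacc
dpy-17, chrIII:5108176-5108276, plus strand: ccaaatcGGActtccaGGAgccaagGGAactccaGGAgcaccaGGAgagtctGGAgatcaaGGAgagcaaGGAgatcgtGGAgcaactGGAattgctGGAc
dpy-13, chrIV:4236127-4236227, plus strand: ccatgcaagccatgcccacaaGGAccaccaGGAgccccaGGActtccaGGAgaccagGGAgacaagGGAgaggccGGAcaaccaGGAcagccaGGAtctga
sqt-3, chrV:12353588-12353688, plus strand: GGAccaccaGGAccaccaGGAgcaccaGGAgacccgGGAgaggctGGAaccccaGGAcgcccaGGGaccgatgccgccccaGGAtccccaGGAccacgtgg
dpy-7, chrX:7537075-7537175, minus strand: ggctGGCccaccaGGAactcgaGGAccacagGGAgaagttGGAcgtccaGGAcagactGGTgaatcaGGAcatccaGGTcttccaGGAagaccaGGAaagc
rol-6, chrII:8733514-8733614, plus strand: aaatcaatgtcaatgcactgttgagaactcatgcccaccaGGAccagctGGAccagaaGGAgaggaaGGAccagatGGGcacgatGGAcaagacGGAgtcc
The windows show GGN recurring mostly at a period of 3 codons, the DNA form of the Gly-X-Y repeat. They hold 7 (rol-6) to 15 (col-140) GGN codons. In some windows the repeat begins inside the window, as in rol-6, dpy-13 and col-105. In others it is interrupted, as in col-9 and sqt-3.

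At the starts of the collagen genes, the thresholded list gave few peaks. Taking the annotated 5′ end of a gene as its start, 5 of 174 had such a summit at most 500 bp away (2.87%, interval 0.939 to 6.58), against 4.13% of all protein-coding genes. This share is near the background, and its side of it depended on the rule. With as many top regions of replicate 1 alone it was 8 (4.60%, other genes 3.96%), and by any overlap of a peak with the window it was 11 (6.32%, other genes 4.74%). With a window of 250 bp it was 0, with the upper part of the peaks 3 and by nearest start only 2. The 5 genes were col-71, col-85, col-2, col-38 and col-37, and 4 of these peaks lay within 500 bp of the start of another protein-coding gene or of a transfer RNA (tRNA) gene. The col-71 peak (WBGene00000647, chromosome II, 3502693 to 3502963) had its summit at -270 bp, where a negative distance is upstream, within 500 bp of the start of Y49F6B.2. It had a signal of 340.8 in the pooled list, where it ranked 143, and ranked 133 in replicate 1 and 156 in replicate 2. The col-2 summit (WBGene00000593, pooled signal 167) lay at -409 bp and within 500 bp of the start of ndc-80, which encodes a kinetochore protein. The col-38 summit (WBGene00000615, signal 133) lay at -423 bp and within 500 bp of the start of rpl-5, a ribosomal protein gene. The col-37 summit (WBGene00000614, signal 116) lay 484 bp after the start, inside its own Gly-X-Y stretch.

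Of the 24 thresholded peaks near or in collagen genes, 3 had a tRNA start within 500 bp. The col-85 peak (WBGene00000660, chromosome II, 12494671 to 12494889, signal 299) lay in the gene, outside its coding exons, 360 bp after the start. The col-185 peak (WBGene00000758, chromosome X, 13511799 to 13512228, signal 177) lay at -917 bp from the start. The remaining peak lay 3920 bp into col-99, outside its coding exons, with a signal of 248. The windows at the col-85 and col-185 summits are printed to show how close the tRNA genes lie, on the strand of the collagen gene, with the bases of the annotated tRNA gene in capitals.
col-85, chrII:12494685-12494785, minus strand: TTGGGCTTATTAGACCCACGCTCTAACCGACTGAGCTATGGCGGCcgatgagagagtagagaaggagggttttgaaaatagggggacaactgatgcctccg
col-185, chrX:13511964-13512064, minus strand: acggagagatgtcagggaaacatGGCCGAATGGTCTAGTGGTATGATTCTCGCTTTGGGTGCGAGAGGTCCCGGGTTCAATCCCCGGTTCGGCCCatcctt
None of the 18 coding-exon peaks had a tRNA start or another protein-coding start within 500 bp of its summit (0 of each). The same shares over all 1416 thresholded peaks were not computed. These counts of neighbouring starts, and those above, therefore have no background beside them.

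**Figure D1:**
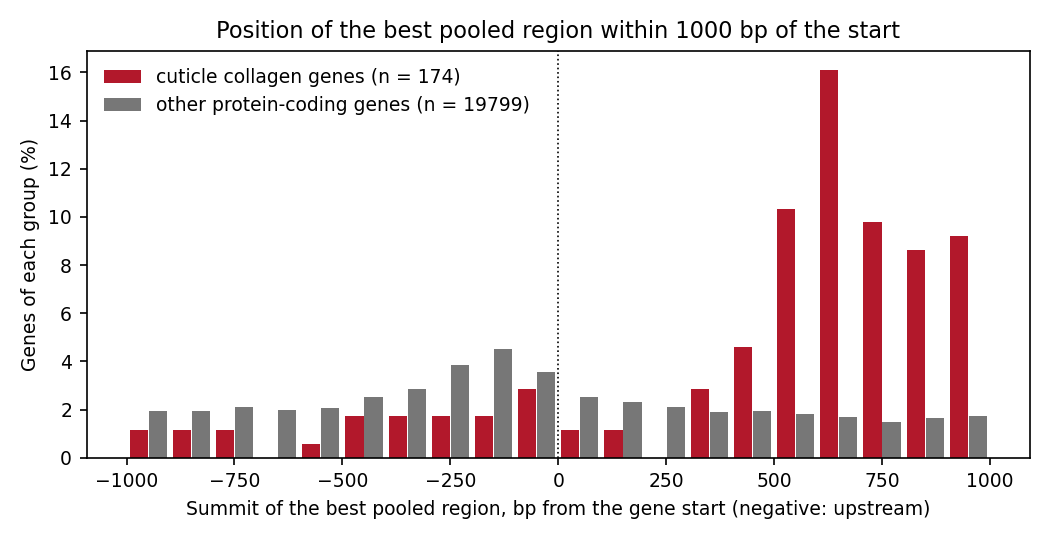
Distance in bp from the gene start to the summit of the pooled region of highest signal within 1000 bp (x axis) against the share of genes of each group in percent (y axis), in bins of 100 bp. Most collagen genes (red) fall between 500 and 1000 bp after the start, and the other protein-coding genes (grey) are highest just upstream of it.

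The wider window shows the same position in the pooled list. Within 1000 bp of the start, 135 of 174 collagen genes had a pooled summit (77.6%), against 46.7% of all protein-coding genes. A thresholded summit lay there for 18 of 174 (10.3%), against 5.6%. This set differs from the 18 genes with a thresholded coding summit. In 12 of them the summit within 1000 bp lay in own coding exons and in 6 it did not. Of the thresholded coding peaks, 6 lay beyond 1000 bp. The best pooled summit of the 135 genes had its median at 626 bp after the start, and that of the 9202 other genes with a region had its median at -112.5 bp. Of the 135, 94 (69.6%) lay 500 to 1000 bp after the start, against 18.1% of the other genes. In own coding exons lay 104 of the 135 (77.04%), against 20.1% of the other genes, and upstream of the start lay 24 (17.8%), against 58.8%. Within 500 bp of the start the pooled list gave 61 of 174 (35.1%), near the 32.2% of all protein-coding genes.

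Relative to the gene, the best coding summit lay at a median of 0.627 of the gene length from the start in collagen genes, with quartiles of 0.538 and 0.707. In the other genes with a coding summit the median was 0.539, with wider quartiles of 0.286 and 0.758. Collagen genes are short, with a median length of 1220 bp against 2040 bp, so that the window of 1000 bp reaches most of their coding sequence. In 67 collagen genes there was more than a single pooled summit in the coding exons. The 145 collagen genes with a coding summit held 221 in all, and the 5802 other such genes held 9046. The share of other genes with more than a single summit was not computed.

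The thresholded coding peaks had moderate signals. The strongest was over col-33 (WBGene00000610, chromosome IV, peak 4264637 to 4265066), with a pooled signal of 146 and rank 642, and its replicate ranks were 680 in replicate 1 and 623 in replicate 2. Over col-9 (WBGene00000598, chromosome X) the signal was 124, with rank 869 in replicate 1 and 899 in replicate 2. The same summit lies at -563 bp from the start of col-44, a collagen gene downstream on that strand, so this peak accounts for col-44 in the count within 1000 bp. Over col-132 the signal was 119, and over the repeat of col-99 it was also 119. The gene col-99 encodes a transmembrane collagen rather than a secreted cuticle collagen, and it is here because its name meets the rule. Over col-19, an adult collagen, the signal was 104 with rank 1491 in replicate 1 and 1099 in replicate 2. The 18 genes had signals of 97.3 to 146 with a median of 108, at ranks 642 to 1403 of 1416.

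Other numbered collagens with thresholded coding peaks differed in how evenly the replicates ranked them. The col-175 peak ranked 688 in replicate 1 and 2020 in replicate 2, and the col-108 peak 857 and 1572 in the same order. The col-69 peak ranked 804 in replicate 1 and 1237 in replicate 2. These 3 stood nearer the top in replicate 1. The neighbouring genes col-104 and col-105 on chromosome IV had a peak each, with ranks of 1662 in replicate 1 and 1120 in replicate 2 for col-104, and of 2280 and 848 for col-105. The col-89 peak ranked 2061 in replicate 1 and 991 in replicate 2, and the col-123 peak 1336 and 1436. The peak over the coding exons of col-71, apart from the one upstream of it, had a signal of 104 and ranked 1117 in replicate 1 and 1410 in replicate 2.

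The threshold cuts through the collagen signals. The lowest thresholded peak of the whole list had a signal of 96.98, and the collagen peaks just inside were dpy-13 at 97.3 and col-140 at 97.4. Just outside were col-20 at 96.6, col-8 at 96.5 and sqt-3 at 94.7. Over all 145 collagen genes with a coding summit the best signal had a median of 72.7, with quartiles of 56.5 and 84.8, against a median of 39.4 for the 5802 other genes with a coding summit. Their median rank in the pooled list was 2993, against 13847 for the other genes.

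**Figure D2:**
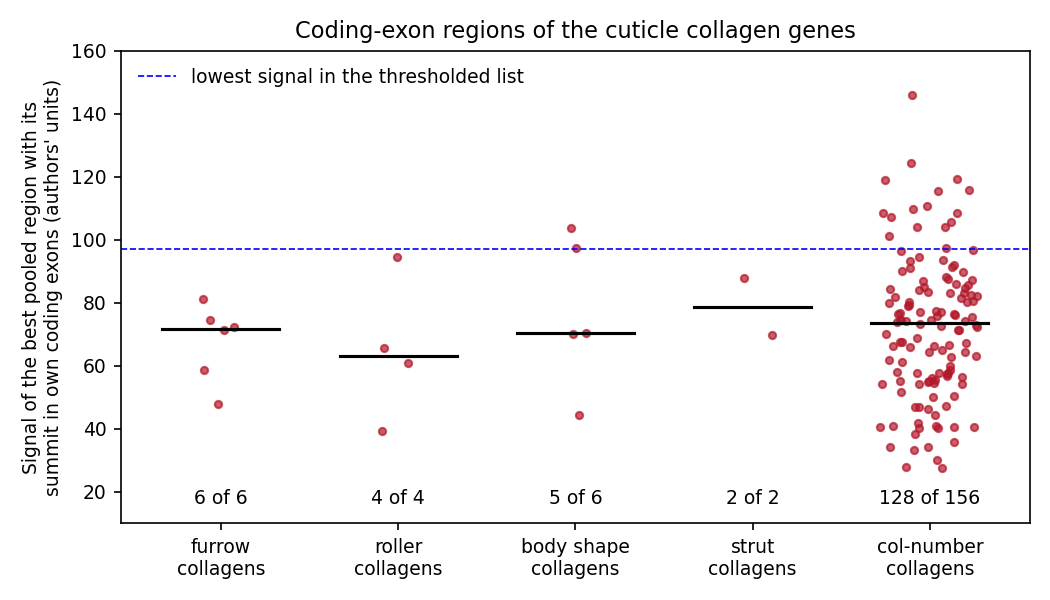
Signal of the best pooled region with its summit in own coding exons (y axis, the authors' units) for each collagen gene, grouped by role (x axis), with 1 point a gene, a black line at the group median and the number of genes with such a region below. The dashed line is the lowest signal of the thresholded list, and 18 genes lie above it, of which dpy-17 and dpy-13 are the body shape collagens.

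The collagens with mutant names carried coding-exon regions as the numbered ones did. A pooled coding summit was found for 17 of these 18 genes and for 128 of 156 col-number genes. All 6 furrow collagens, needed for the circumferential furrows of the cuticle, had a coding summit, at signals of 47.8 (dpy-2) to 81.2 (dpy-3) with a median of 71.7. The dpy-7 region had a signal of 72.2 and lay 667 bp after the start, and it ranked 5500 in replicate 1 and 2682 in replicate 2. The dpy-10 region, at 58.6, ranked 2574 in replicate 1 and 17478 in replicate 2, so the replicates differ there. The other furrow collagens were dpy-9 at 74.4 and dpy-8 at 71.2. None of the 6 had a thresholded peak.

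All 4 roller collagens, whose mutants twist along the body axis, had a coding summit. The sqt-3 region had a signal of 94.7 and ranked 1494 in replicate 1 and 1742 in replicate 2. The sqt-1 region was at 65.5 and the rol-6 region at 61.0, with rol-6 ranks of 5389 in replicate 1 and 6503 in replicate 2. The sqt-2 region was at 39.3 in the pooled list. Its best coding region ranked 5039 in replicate 1, within 500 bp of the start, and 18869 in replicate 2, beyond 500 bp. These ranks may belong to different regions. The strut collagens, bli-1 and bli-2, whose loss gives blisters in the adult cuticle, were at 87.7 and 69.6.

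Among the body shape collagens, dpy-17 and dpy-13 had thresholded peaks over their coding exons. The dpy-17 peak (WBGene00001076, chromosome III, 5108011 to 5108440) had a signal of 104 and ranked 854 in replicate 1 and 2156 in replicate 2. The dpy-13 peak (WBGene00001074, chromosome IV, 4235962 to 4236391) had a signal of 97.3 and ranked 922 in replicate 1 and 3276 in replicate 2. The lon-3 region was at 70.0, the dpy-14 region at 70.4 and the dpy-4 region at 44.3. The gene dpy-5 had no summit within 1000 bp of its start or in its coding exons in any of the 4 lists, although none of its coding 36-mers occurs elsewhere in the genome (0%) and its coding GC content was 55.4%.

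Both replicates held most of the coding-exon regions. Replicate 1 had a coding summit for 140 of 174 collagen genes (80.5%, against 29.6% of all protein-coding genes), replicate 2 for 145 (83.3%, against 29.1%), and 136 had it in both. The median rank of the best coding region of those 136 genes was 2828.5 in replicate 1 and 3864.5 in replicate 2, and 118 were in the upper part of both lists, above the middle rank. Of 19799 other genes, 3439 had a coding summit in both replicates, and 1573 were in the upper part of both lists. The order of the collagen genes was less alike than their presence. The best coding region was taken in each list separately, so the values compared need not belong to the same region. For dpy-17 the best coding summit lay 853 bp after the start in replicate 1 and 23 bp in replicate 2. Spearman's rho, which compares orders, of the best coding signal between the replicates was 0.289 across the 136 collagen genes and 0.385 across 3439 other genes with a coding summit in both, a description over genes that share 2 libraries. The 18 thresholded coding peaks ranked no worse than 2352 in replicate 1 and 4007 in replicate 2. The largest gap among them was col-39, at rank 620 in replicate 1 and 4007 in replicate 2.

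**Figure D3:**
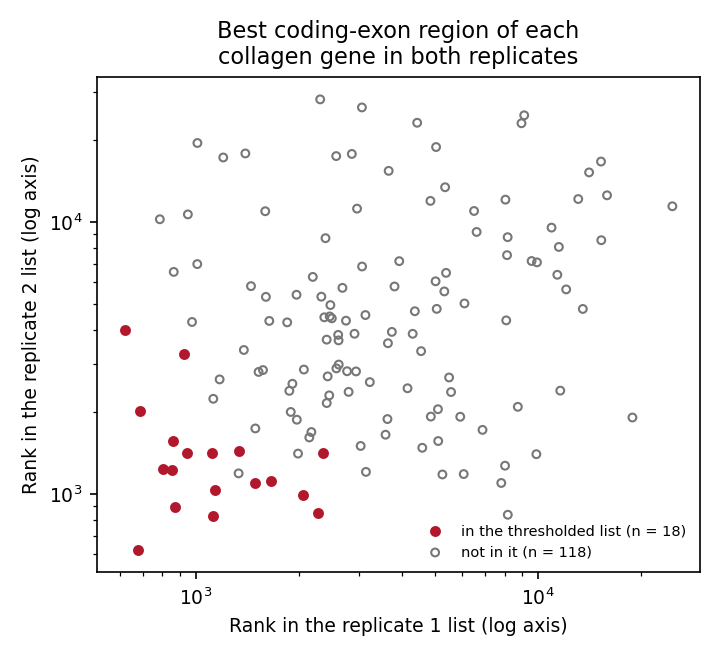
Rank of the best coding-exon region of each of 136 collagen genes in the replicate 1 list (x axis) and the replicate 2 list (y axis), both on log axes, where a low rank is a high signal. The best region was taken in each list separately and need not be the same region in both. Filled points are the 18 genes in the thresholded list, which lie at low ranks in both lists, and open points are the other 118, which spread widely.

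Near the starts, replicate 1 had a summit within 500 bp for 56 of 174 collagen genes (32.2%, against 30.1% of all protein-coding genes) and replicate 2 for 60 (34.5%, against 31.8%). Among the 36 collagen genes with a summit within 500 bp of the start in both replicate lists, the largest differences of rank as a fraction of the list were at col-12, dpy-17 and col-119. The col-12 region ranked 23670 in replicate 1 and 6288 in replicate 2. The dpy-17 region within 500 bp of the start ranked 18486 in replicate 1 and 1222 in replicate 2, and that of col-119 ranked 10315 and 29110 in the same order. The members of highest pooled signal within 500 bp after the thresholded 5 were col-72 at 85.4, col-97 at 84.3, col-46 at 81.4, col-185 at 79.2 and col-106 at 76.5. Of these, col-97 ranked 786 in replicate 1 and 10238 in replicate 2, and col-106 ranked 949 and 10669. The col-106 summits lay 435 bp after the start in replicate 1 and 168 bp in replicate 2, so its ranks may belong to different regions.

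The Gly-X-Y stretch is the feature that the collagen genes share and the name rule did not use. A stretch was counted where GGN stood at every step of 3 codons for at least 4 steps in the longest coding transcript, and each step is called a unit. The codons between could also be GGN, so units could overlap, as in grl-23, with 103 units in 444 bases. A counted stretch therefore need not be a Gly-X-Y repeat, and unit counts of such genes are not comparable with those of the collagens. In this count 173 of 174 collagen genes had a stretch, with a median of 51 units, and 152 had 48 to 55 units. The exception was col-17, which had 0 units in the annotated reading frame and 51 units when the frame was moved by 2 bases. The stretches made up 47.5% of the coding bases of the collagen genes and held 178 of the 221 pooled summits in them (80.5%). This is 2.19 summits per kb of stretch, against 0.479 per kb of the rest of the same coding exons. The stretch bases had a GC content of 60.5%, against 49.1% for the rest of the coding exons, and the part of GC content in this difference was not tested.

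Other genes with a stretch by this count gave regions there too. Of 470 other genes with any stretch, 57 had a pooled summit in it (12.1%), against 131 of 173 collagen genes (75.7%). These other stretches are mostly short, with a median of 4 units. In the 48 other genes with at least 20 units the density was 1.84 summits per kb of stretch, close to the 2.19 of the cuticle collagens, and both were above the rest of the coding exons, at 0.841 per kb in those 48 genes. These 48 are not a set without collagens, since they hold let-2 and emb-9, with stretches of 4299 and 4263 bases. They also hold bli-6 and rol-8, with 56 and 51 units, which the name rule leaves out. The density without such genes was not computed. Only rol-1 and ram-2 among the other genes had a thresholded summit in a stretch, at signals of 119 and 102, and each holds 51 units like the cuticle collagens, though the name rule leaves them out. The basement membrane collagens emb-9 and let-2, with 474 and 479 units, had coding signals of 84.8 and 69.0 and no thresholded peak. The signals of mec-5, a collagen needed for touch sensing, and of cle-1, the worm collagen XVIII gene, were 68.3 and 60.6.

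Base composition moved with these results. The coding exons of the collagen genes had a median GC content of 54.9%, against 42.5% for other protein-coding genes, and the 101 bases at their best coding summits had a median of 59.4%, against 46.5%. Among other genes, pooled coding summits were also denser at higher GC content, at 0.0846 per kb below 40% GC, 0.677 per kb at 45 to 50% and 1.53 per kb at 55% or more. At 55% GC or more the 87 collagen genes had 1.42 pooled summits per kb of coding exon and the 218 other genes 1.53. At 50 to 55% the values were 1.25 in 59 collagen genes and 1.09 in 1431 other genes, and at 45 to 50% they were 1.07 in 25 collagen genes and 0.677 in 4342 others. Per kb, collagen genes in the 2 highest bins were thus close to other genes of like GC content. The bins keep genes with at least 50% of their coding 36-mers repeated elsewhere in the genome. Across all bins these were 26 collagen genes and 801 other genes, of which 26.9% and 3.75% had a pooled coding summit. The part of repeated sequence in these densities was not tested. By the share of genes with a pooled coding summit the collagen genes and other genes were not as close, with 81.6% of collagen genes and 57.8% of other genes at 55% or more, and 84.7% of collagen genes and 54.02% of other genes at 50 to 55%.

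Signals within those bins were still higher over collagen genes. At 55% GC or more the median best coding signal was 75.4 in collagen genes and 51.1 in other genes, and at 50 to 55% it was 73.2 and 50.6 in the same order. Thresholded coding summits came to 0.145 per kb in collagen genes (12 summits) and 0.0451 per kb in other genes (6 summits) at 55% or more. At 50 to 55% they came to 0.105 per kb (6 summits) and 0.016 per kb (21 summits). Median coding length was 903 bp in collagen genes and 418.5 bp in other genes at 55% or more, and 945 bp and 630 bp at 50 to 55%. These are descriptions of small counts, and the differences within bins were not tested.

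**Figure D4:**
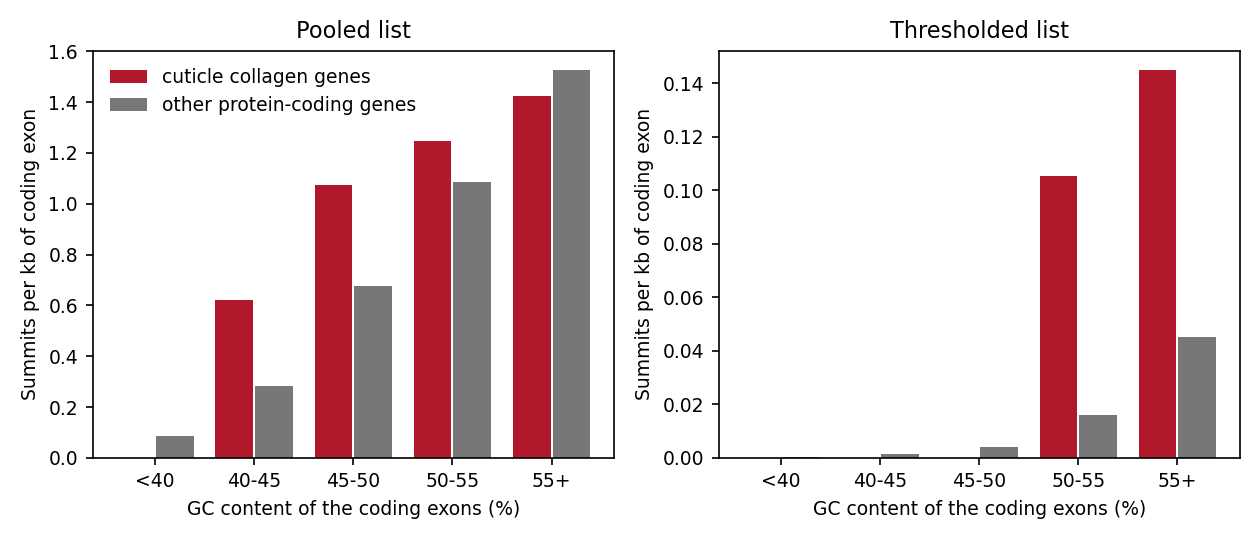
Summits per kb of coding exon (y axis) by GC content of the gene's coding exons in percent (x axis), for cuticle collagen genes (red) and other protein-coding genes (grey), in the pooled list (left) and the thresholded list (right). In the pooled list both groups climb with GC content and are alike at 55% or more (1.42 and 1.53 per kb), and in the thresholded list the collagen genes stand higher (0.145 and 0.0451 per kb), and no collagen gene is below 40% GC.

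The collagen genes with no region were mostly those whose coding sequence is repeated elsewhere. The share of coding 36-mers that occur elsewhere in the genome was used as a measure, since the read length is not given in the sources used here. Of 127 collagen genes with a share under 5%, 119 had a pooled coding summit (93.7%), against 31.02% of 17616 other genes with such a share. At a share of 5 to 50% it was 19 of 21 collagen genes (90.5%), against 22.8% of 1348 other genes. Of 26 collagen genes with a share of 50% or more, 7 had one (26.9%), against 3.75% of 801 other genes. The 29 collagen genes with no pooled coding summit had a median share of 81.4%, and 21 of them had a share of at least 40%. Among these were the close pairs col-12 and col-13, col-126 and col-127, and col-3 and col-117, all at 91.9% or more. The other 8 had shares under 5%: col-36, col-60, col-72, col-78, col-116, col-141, col-152 and dpy-5. Of these, col-141 and col-152 had a coding summit in both replicate lists, at signals of 38.6 and 54.6 in replicate 1 and 42.2 and 19.96 in replicate 2. The part of repeated sequence in these absences was not tested.

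**Figure D5:**
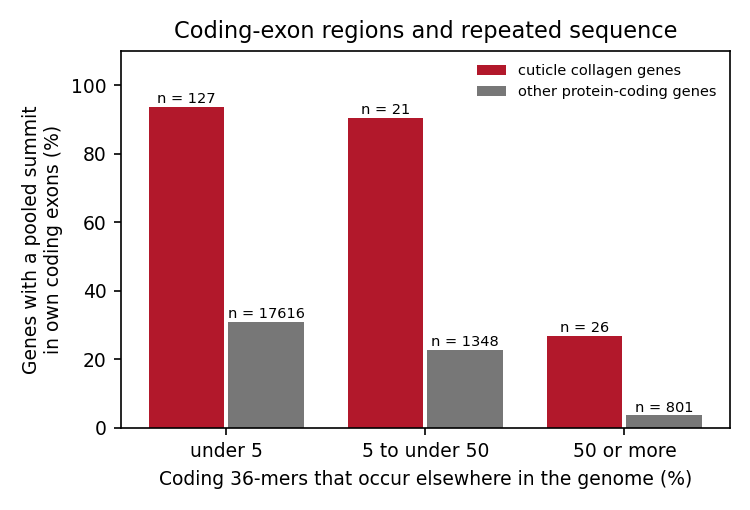
Share of genes with a pooled summit in their own coding exons in percent (y axis) by the share of their coding 36-mers that occur elsewhere in the genome (x axis), for cuticle collagen genes (red) and other protein-coding genes (grey), with the number of genes above each bar. Collagen genes reach 93.7% where few 36-mers are repeated and 26.9% where most are.

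The collagen genes are spread over the genome, with 44 on chromosome IV, 33 on V, 31 on II, 30 on X, 23 on I and 13 on III. The share with a pooled coding summit ran from 66.7% on chromosome V to 93.3% on X, and was above that of the other genes on each chromosome, which ran from 21.6% on V to 37.4% on I. Few have a close neighbour, since 9 of 174 had another protein-coding start within 500 bp. The mean number of such starts per gene was 0.0517 in collagen genes and 0.116 in other genes. In 3 of the 18 thresholded coding peaks the summit also lay inside another gene, namely dph-2 at col-39, ZK1193.2 at col-19 and catp-6 at col-123.

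The upstream sequence of the collagen genes differed from that of other genes in the TATA motif. In the 300 bases from 250 before to 50 after the start, TATAAA on either strand was found in 116 of 174 collagen genes (66.7%), against 37.9% of all protein-coding genes. The motif AGGTCA, a core element of nuclear receptor sites, was found in 14.9% of collagen genes and 8.27% of all. The motif GAGAGA was found in 28.2% of collagen genes and 21.8% of all. The GATA-type motif TGATAA was found in 29.9% of collagen genes and 30.2% of all. All 4 were searched on both strands, and none contains another. The GC content within 250 bp of the start had a median of 38.6% in collagen genes and 35.5% in other genes. A match is a description of the letters and says nothing about binding.

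Other cuticle pathway genes were set beside the same all-gene shares, 4.13% for a thresholded summit at most 500 bp from the start and 29.8% for a pooled coding summit. Among 17 collagen processing genes, 2 carried such a thresholded summit (11.8%), and none had a coding-exon one (0 of 17). These were sec-23, a coat protein of secretory vesicles (signal 188, summit at -391 bp, rank 367 in replicate 1 and 488 in replicate 2), and adt-2, a secreted metalloprotease (signal 114, summit 470 bp after the start). Of 33 cuticle and moulting regulators 2 had one (6.06%), myrf-1 at 230, a membrane-bound transcription factor of the moulting cycle, and mlt-9 at 106. The nuclear receptor genes nhr-23 and nhr-25, regulators of moulting, had pooled regions there below the threshold, at 88.9 and 83.9. In this list mlt-10 and the clock gene lin-42 had thresholded coding summits, at 102 and 103. Of 35 cuticlin genes, which encode non-collagen cuticle proteins, 1 had a peak that close (2.86%), cutl-23 at 107, and none had a coding-exon one (0 of 35). A pooled coding summit was found for 145 of 174 cuticle collagens (83.3%), all 4 other collagens, 19 of 33 regulators (57.6%), 8 of 17 processing genes (47.1%) and 11 of 35 cuticlins (31.4%). The regulators and processing genes were above the all-gene share of 29.8% and the cuticlins near it, in small lists with no test. Coding length was not matched between the lists. Among all genes outside the cuticle collagens, its median was 1335 bp with a pooled coding summit and 906 bp without. The part of coding length in these shares was not tested.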

How the data were processed

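The samples were 2 biological replicates of 1 group, labelled from their descriptions. The authors deposited regions as narrowPeak lists on ce10 and ce11, each with a signal value and a summit offset, and a control was used upstream, per the deposited records. The aligner, peak caller, IDR threshold, read length and depth, not given in the sources used here, could not be checked, so no counting interval on a signal was possible. The authors' signal was compared only within a list, and replicates were compared by rank. The ce10 lists were not used, since the genome and gene models are WBcel235, the assembly of ce11. All regions lay within the chromosome ends (0 exceptions).

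For each protein-coding gene the region of highest signal was taken whose summit lay within 500 or 1000 bp of the start or inside the merged coding exons of the gene. Coordinates are 1-based. Genes are described by counts beside all protein-coding genes, with no test and no p-value. Repeats were counted as 36-mers and 50-mers, on both strands, that occur more than once in the genome. The members and gene lists, and the coding-exon and Gly-X-Y measures, were chosen with earlier results of these data known. The genes named are those with a thresholded summit within 1000 bp, the 10 of highest pooled signal within 500 bp, the 18 with mutant names, the 3 of largest replicate difference and the pathway genes with a thresholded summit at the start. Others, such as genes without a region, nhr-23, nhr-25, mlt-10, lin-42, rol-1 and ram-2, were chosen after their values were seen. Assignment was checked on planted regions. Alternatives covered the window, start, threshold, overlap, repeats and leaving out each replicate. Python 3.11.15, numpy 2.4.6, pandas 2.3.3, scipy 1.17.1 and matplotlib 3.10.9 were used.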

Additional observations from a re-analysis of the deposited data

How the results depend on the processing

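The count of collagen genes with a pooled summit in their coding exons (145) was 138 with regions above the median signal (79.3%, other genes 15.97%), 140 to 145 with a single replicate and 119 of 127 among genes with few repeated 36-mers. These alternatives, and those for the thresholded coding and 1000 bp counts, were chosen after seeing the data. The thresholded coding count (18) was 21 to 25 with as many top regions of a single replicate, and the thresholded count within 1000 bp (18) was 16 to 24. Results at the start depended on the window and overlap rule. The 5 genes with a thresholded summit within 500 bp became 0 with 250 bp, 18 with 1000 bp, 3 with the upper part of the peaks, 2 by nearest start only, 11 by region overlap, and 6 to 8 with a single replicate, the higher count without replicate 2. The 61 genes with a pooled summit became 25 with 250 bp, 135 with 1000 bp and 103 by region overlap. Most genes have no region within 500 bp, so the median percentile of collagen genes (33.9) equals that of other genes in every setting but 2: it was 85.7 with 1000 bp (other genes 26.6) and 56.8 among genes with a region. It was 40.3 with 250 bp, 32.1 with any transcript start, 33.1 among genes with few repeated 36-mers and 34.1 to 34.96 with a single replicate. The median distance to the best summit (141 bp after the start) was -28 bp with 250 bp, 626 bp with 1000 bp, and 22 to 186.5 bp with a single replicate. Of 37 alternatives over 7 results, 19 kept the value within the limit used, 17 moved it and 1 reversed it. Beyond the windows and rules themselves, the cause was not tested. Depth is unknown, so a missing region cannot be told from too few reads. No paired analysis was possible because there was only 1 group.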
